A study of Mus musculus with 17 samples.

Results

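The ribosome-bound RNA of mouse keratinocytes was compared between cells in which Musashi-2 (Msi2) was knocked down and control cells. The comparison used 6 footprint libraries of the 17 libraries in the series, 3 per group, and every gene with enough footprints to be tested, which was 8969 of 20572 genes in the count table. Another 4038 genes had counts too few to test and 7565 had none in any of the 6 libraries. All cells came from 1 keratinocyte culture of newborn C57BL/6 skin that became immortal without an introduced gene, after 3 passages on growth-arrested fibroblast feeders and further passage on plain dishes. Control cells carried a lentiviral hairpin (shRNA) of scrambled sequence, and knockdown cells carried one against Msi2. Both groups were infected, selected with puromycin at 2 ug/ml for 2 days from day 2 after infection, expanded, and held in cycloheximide for 1 min before lysis, so infection, selection and drug were common to both. The labels do not say how many hairpins against Msi2 were used, or whether libraries of 1 group were grown apart. The p-values thus reflect the spread seen from library to library, and this spread may be technical.

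Ribosome profiling treats a lysate with nuclease and sequences the short RNA pieces that ribosomes shelter, so a gene's count follows both how much of its RNA is present and how densely ribosomes sit on it. A long coding sequence holds more ribosomes than a short one, and a share of the footprint pool therefore also depends on length. Cycloheximide freezes elongating ribosomes. Msi2 is an RNA-binding protein that acts through 3' untranslated regions and is known for its part in progenitor cells of several tissues. Keratinocytes of the basal layer anchor to a basement membrane, and on differentiation they leave it and build the cornified barrier.

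The control libraries held 2196405, 2959625 and 702602 gene counts and the knockdown libraries 2069440, 512256 and 998028, and no pair within a group agreed within sampling noise (chi-square over genes of 1.66 to 4.65 per degree of freedom). Across the tested genes, Pearson's r of log2 CPM (counts scaled to library size, with TMM library factors) was 0.951 to 0.980 within groups and 0.906 to 0.954 between groups, as a description over genes that are not independent replicates. Sums of marker genes are given in CPM without TMM factors. The 10 keratinocyte markers summed to between 21180 and 26940 CPM in every library. The 11 fibroblast markers summed to 7.74 to 15.7 CPM in the control and 7.81 to 9.66 CPM in the knockdown, with Col3a1, Dcn, Lum and Fap at 0. The 7 melanocyte markers summed to 5.46 to 7.12 CPM in the control and 1.45 to 3.90 CPM in the knockdown, with Tyr, Dct, Tyrp1 and Sox10 at 0. The 7 immune markers summed to 13.7 to 14.2 CPM against 2.90 to 11.7 CPM, with Ptprc, Cd74, Lyz2 and Cd3e at 0. Neither sum overlapped between groups, but over all 6 libraries they rest on 41 counts (melanocyte) and 99 counts (immune). In the knockdown libraries 3 counts alone are 1.51, 6.02 and 3.07 CPM. Of these 14 genes only Cd68 was tested, which was called lower (adjusted p = 0.0313), a call lost under DESeq2 and without control 1, control 2, knockdown 1 or knockdown 3. The endothelial and muscle markers summed to 17.1 to 30.8 CPM in the control and 29.3 to 49.8 CPM in the knockdown, with Cdh5 and Tek at 0. Among them 2 genes were tested, and 1, Acta2, was called higher (log2 fold change 0.95). The call of Acta2 was lost under DESeq2 and without control 1 or knockdown 1. In RNA both tested genes were called higher. The part of these marker sets in the results was not tested.

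The targeted gene checks the labels. Msi2 footprints numbered 39, 50 and 13 counts in the control libraries and 9, 0 and 5 in the knockdown libraries, or 17.1, 16.8 and 18.3 CPM against 4.53, 0 and 5.12 CPM. The groups were apart in every library, and the fitted change, knockdown over control, was -2.08 ± 0.41 (log2, SE; adjusted p = 0.000285). The library without a Msi2 count was the smallest, and a count of 0 there allows up to 6.02 CPM, for counting error only. The RNA of Msi2 over the coding sequence differed by -0.29 on the log2 scale (adjusted p = 0.283), and the test of the difference between footprints and RNA gave an adjusted p of 0.117.

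Footprints of 786 genes were higher in the knockdown and those of 662 genes were lower at an adjusted p under 0.05, which is 8.76% and 7.38% of the tested genes, or 16.1% in either direction. The median log2 fold change over all tested genes was -0.01, which TMM scaling sets near 0, and upper-quartile factors gave 726 higher and 727 lower genes. Changes of at least 1 on the log2 scale among called genes numbered 181 higher (2.02%) and 230 lower (2.56%). The groups did not overlap for 31.4% of tested genes. DESeq2 called 481 genes higher and 373 lower, and leaving out single libraries gave 463 to 885 higher and 350 to 749 lower, with fewest higher calls without control 1 or knockdown 3 and fewest lower calls without knockdown 1. No called gene changed sign under DESeq2 or without any 1 library.

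**Figure D1:**
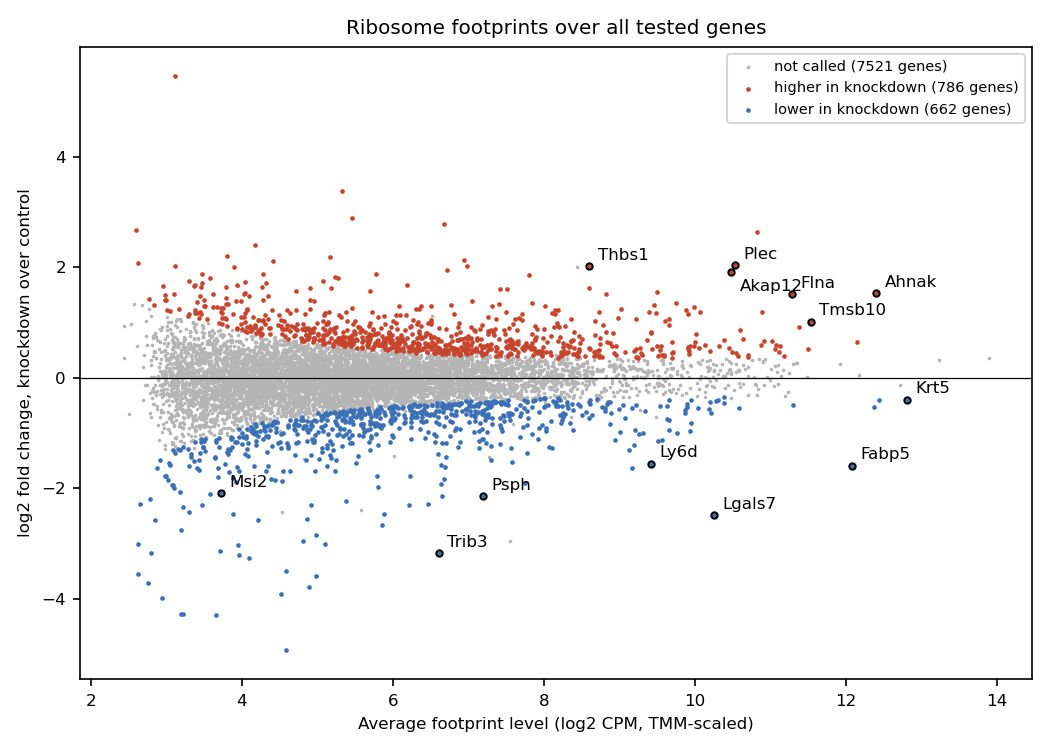
Each point is 1 of 8969 tested genes, with its average footprint level (log2 CPM) on the horizontal axis and its log2 fold change, knockdown over control, on the vertical axis. The 786 higher genes are red, the 662 lower genes are blue, the others are grey, and 13 named genes are circled.

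The largest shifts of the pool itself fell on genes of the cytoskeleton and of the epidermis. In a bulk culture, fewer cells with a program and less of its RNA per cell cannot be told apart. As a description, since the genes were picked on the same values, genes called higher held 12.9, 13.6 and 13.8% of the footprints of the control libraries and 21.3, 21.7 and 21.9% of those of the knockdown libraries. Genes called lower went from 14.6, 13.8 and 14.8% to 8.26, 8.82 and 8.13%. Ranking was limited to genes that passed the test with every knockdown library on one side of every control library. For ranked genes, groups that do not overlap are thus no separate result. The 10 with the largest gain of share included Ahnak, Flna, Tmsb10, Actg1, Plec, Akap12, Fat1, Tmsb4x and Hsp90ab1, and those named, Hsp90ab1 apart, encode parts or partners of the actin and intermediate filament systems or, for Fat1, a giant cadherin that acts on actin. By the same rule the 10 with the largest loss were Fabp5, Krt5, Krt17, Lgals7, Sfn, Hist1h1c, Ly6d, Perp, Hist1h1e and Spink5. Actb and Eef1a1, beta-actin and an elongation factor, gave the most footprints in both groups and were not called (adjusted p = 0.056 and 0.0826).

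Ahnak, a giant scaffold protein under the plasma membrane, had 2216, 2277 and 3894 CPM in the control and 7176, 9459 and 7558 CPM in the knockdown. The log2 fold change of Ahnak was 1.53 ± 0.19 (adjusted p = 2.58e-05). Its share of the pool went from 0.284 to 0.783%, from place 13 to place 3 among all genes (chromosome 19, 8989284 to 9076935, GRCm38.p6). Flna, filamin A, a crosslinker of actin filaments, went from 1131, 1192 and 1589.9 to 3666, 4027 and 3427 CPM, a log2 fold change of 1.51 ± 0.14 (adjusted p = 7.56e-11).

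Akap12, a scaffold that gathers protein kinases at the cell cortex, was among the most even of these genes. It had 555, 634 and 622 CPM in the control and 2289, 2266 and 2247 CPM in the knockdown, a change of 1.91 ± 0.13 (adjusted p = 1.31e-13). The actin monomer binders Tmsb10 and Tmsb4x, the thymosins beta, rose by 1.02 ± 0.16 and 1.19 ± 0.15. Tmsb10 had 1459, 1834 and 2639.6 CPM against 4417, 3783 and 3739 CPM. Short coding sequences such as these, with many processed copies in the genome, and near-identical pairs such as the actins can share footprint reads with their copies, and how such reads were counted is not given in the sources used here.

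On the losing side, Fabp5, the fatty acid carrier of the epidermis, had 6001, 6918 and 6601 CPM in the control and 2200.4, 2387 and 1922 CPM in the knockdown. The difference was -1.59 ± 0.13 on the log2 scale (adjusted p = 1.11e-11), and the gene (chromosome 3, 10012585 to 10016610) moved from place 5 to place 39 by share. Lgals7, a galectin of stratified epithelia, had 1825, 2019.5 and 2324 CPM against 348, 495 and 282 CPM. Its fold change was -2.48 ± 0.16 (adjusted p = 1.35e-12), and it went from place 26 to place 471. Ly6d, a surface protein of keratinocytes, fell by 1.55 ± 0.14 on the log2 scale, and Spink5, an inhibitor of the proteases that shed the outer skin, fell by 1.63 ± 0.14, from 771, 763 and 1061 CPM to 309, 253 and 266 CPM.

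The same kind of genes was also ranked by fold change, keeping those that averaged 6 or more in log2 CPM. Among the 10 largest increases were those of Itga2, Sptbn1, Plec, Thbs1, Csf3, Specc1, Akap12, Vcan and Dbn1. Specc1, a cytospin that binds actin and microtubules, had 38.2, 40.6 and 69.1 CPM in the control and 146, 227 and 169.9 CPM in the knockdown (1.95 ± 0.19), and Dbn1, drebrin, which bundles actin, rose by 1.67 ± 0.18. The 10 largest decreases were those of Trib3, Lgals7, Reep6, Slc6a9, Phf10, Psph, Atf5, Pck2, Ctsc and Clic3, of which Trib3, Slc6a9, Psph and Atf5 were on the list of ATF4 targets and stress factors. Phf10, a subunit of a chromatin remodelling complex, had 147, 124 and 206 CPM against 36.3, 50.1 and 23.5 CPM (-2.13 ± 0.21). Reep6, which shapes the endoplasmic reticulum, fell by 2.29 ± 0.21, the lysosomal protease Ctsc fell by 1.83 ± 0.19 and the chloride channel protein Clic3 fell by 1.78 ± 0.19.

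**Figure D2:**
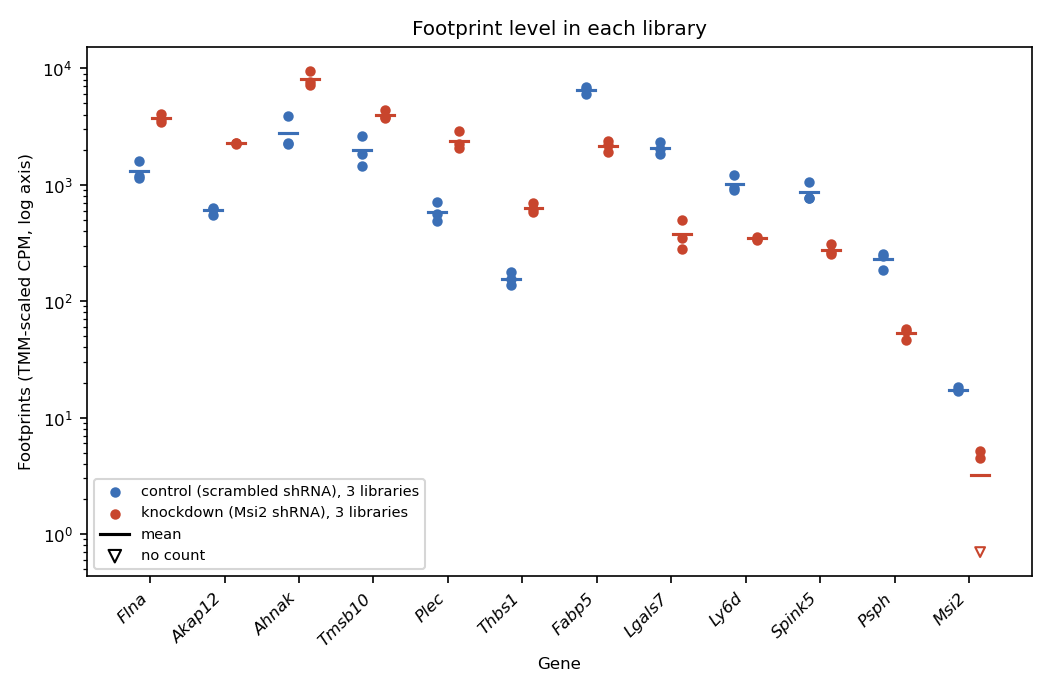
Footprint level (TMM-scaled CPM, log axis) of 12 genes in each control library (blue) and knockdown library (red), with the mean of 3 as a bar and an open triangle for a library with no count. Apart from Msi2, the genes come from rankings that required groups without overlap, so their separation is no separate result. Akap12 went from 555 to 634 CPM in the control to 2247 to 2289 CPM in the knockdown.

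Anchorage to the basement membrane was the most uniform of the groups that rose. Of 13 tested genes of the hemidesmosome and of its laminin ligands, 11 were higher and none lower, against 8.76% of all tested genes higher, and their median log2 fold change was 0.65 against -0.01 over all tested genes. Together these genes held 0.785, 0.848 and 1.02% of control footprints and 1.39, 1.68 and 1.57% of knockdown footprints. Plec, plectin, which ties keratin filaments to the hemidesmosome, had 490.4, 557 and 712 CPM in the control and 2053, 2888 and 2243 CPM in the knockdown. The change of Plec was 2.04 ± 0.15 (adjusted p = 1.38e-12). Of the laminin chains, Lama3 rose by 1.22 ± 0.14, Lamb3 by 0.96 ± 0.13 and Lama5 by 1.28 ± 0.14. Smaller rises were seen for Itgb4, the beta 4 integrin of the hemidesmosome (0.55 ± 0.13, adjusted p = 0.00267), and for the transmembrane collagen Col17a1 (0.58 ± 0.13, adjusted p = 0.00197). The tetraspanin Cd151 was near 0 and Col7a1, the collagen of anchoring fibrils, at 0.41, and neither passed the test.

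At focal adhesions, where integrins meet actin, 12 of 26 tested genes were higher and none lower, with a median of 0.37. The integrin subunits Itgb1, Itgav and Itgb6 rose by 0.68 ± 0.13, 0.66 ± 0.13 and 0.71, and the crosslinker Actn1 by 0.53 ± 0.13. Itgb1, the common beta chain, had 995, 933 and 1168 CPM in the control and 1797, 1430.1 and 1699 CPM in the knockdown. Tns3, tensin 3, which links integrin tails to actin, had 42.1, 43.3 and 45.1 CPM against 85.1, 98.3 and 84.9 CPM, a change of 1.02 ± 0.17 (adjusted p = 2.96e-05). The kinases and scaffolds of the same structure, Ptk2 (0.23), Src (-0.09), Ilk (0.05) and Pxn (-0.08), did not pass the test.

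The large linkers of the cytoskeleton had the highest median of any list, 0.89 over 21 tested genes, of which 14 were higher and none lower. They held 0.820, 0.810 and 1.13% of the footprints in the control libraries and 2.02, 2.51 and 2.13% in the knockdown libraries. Macf1, which couples microtubules to actin, had 169, 181 and 243 CPM in the control and 532, 672 and 588 CPM in the knockdown. Its change was 1.62 ± 0.14 in footprints (adjusted p = 4.94e-11) and 0.75 in RNA, and the test of the difference between footprint and RNA changes gave an adjusted p of 0.0506. The spectrin Sptan1 rose by 1.19 ± 0.13, the scaffold Iqgap1 by 1.32 ± 0.16, the dystrophin relative Utrn by 1.16 ± 0.15 and the non-muscle myosin Myh9 by 0.67 ± 0.13. These genes are long, and fold changes moved with genomic span over all genes. Of 5 equal groups of genes by span, the shortest had a median of -0.07, with 6.99% higher and 10.6% lower, and the longest had 0.07, with 13.6% higher and 5.20% lower. In RNA the same groups had medians of -0.25 and 0.23, and the part of span in the results was not tested.

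Among 37 tested genes of actin dynamics, 8 were higher and 1 lower, and their median of 0.05 was close to that of all genes. Leaving out control 1 left 4 of the higher calls, and leaving out knockdown 1 or knockdown 3 left 5. The severing factor Cfl1, cofilin, had 1763, 1898 and 1515 CPM against 2738, 2615 and 2462 CPM (0.59 ± 0.13, adjusted p = 0.000955), while its RNA changed by 0.00. No gene of this list, Cfl1 included, passed the test of the difference between footprint and RNA changes. Capg, which caps actin filaments, fell by 0.94 ± 0.13, from 1025, 975 and 1181 CPM to 531, 638 and 490.1 CPM. Of the complex that nucleates actin branches, Actr2 rose by 0.38 ± 0.13 (adjusted p = 0.0381), a call lost under DESeq2, under upper-quartile factors and without control 1, control 2, knockdown 1 or knockdown 3. Arpc2 at -0.17, Arpc3 at -0.25 and Actr3 at -0.06 did not pass the test.

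Secreted matrix genes were higher for 13 of 21 tested members and lower for none, with a median of 0.59. Thbs1, thrombospondin 1, a matrix protein that activates TGF-beta, had 138, 176 and 154 CPM in the control and 621, 588 and 696 CPM in the knockdown. The change of Thbs1 was 2.02 ± 0.14 on the log2 scale (adjusted p = 1.31e-13). Vcan, the proteoglycan versican, rose by 1.86 ± 0.16 and Hspg2, the basement membrane proteoglycan perlecan, by 1.55 ± 0.14. Hspg2 had 348, 371 and 399 CPM against 923, 1254 and 1104 CPM. The basement membrane collagen Col4a1 (0.68 ± 0.13), agrin (Agrn, 0.66 ± 0.13) and fibronectin (Fn1, 0.59 ± 0.14) changed less. Of the proteases of matrix turnover and their inhibitors, 8 of 17 tested were higher and 1 was lower, and 5 were higher without control 1, knockdown 1 or knockdown 3. The urokinase receptor Plaur rose by 0.86 ± 0.15, the membrane protease matriptase (St14) by 0.80 ± 0.15, and the metalloprotease inhibitor Timp1 by 1.29 ± 0.20.

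Signals that keratinocytes send out also gained footprints. In the list of cytokines, chemokines and NF-kB feedback genes, 12 of 18 tested members were higher and 2 lower, with a median of 0.70, and the list's share went from 0.185, 0.188 and 0.190% to 0.338, 0.290 and 0.330%. Csf3, the growth factor of neutrophils, had 55.8, 44.7 and 59.3 CPM in the control and 221, 191 and 214 CPM in the knockdown (2.02 ± 0.16, adjusted p = 1.65e-12). The neutrophil-attracting chemokines Cxcl3 and Cxcl5 rose by 1.36 ± 0.15 and 1.03 ± 0.15. Lif (1.62 ± 0.24), the alarm cytokine Il1a (1.00 ± 0.16) and Il24 (0.63 ± 0.13) rose as well, as did Tnfaip3 (1.58 ± 0.24), a brake on NF-kB. The lower pair was Il33 and Il1rn, which were at 24, 30 and 15 counts against 4, 0 and 2 counts for Il33, and of the pair 1 gene stayed called under DESeq2 and without control 1 or knockdown 1. A further 15 genes of the list, among them Il6, Tnf and Ccl2, had too few footprints to be tested.

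In the lists of growth factor pathways, genes that passed the test were higher more often than lower. Targets of YAP and TEAD were higher for 9 of 19 and lower for none (median 0.35), and Ahnak, described above, is 1 of the 9. The secreted targets Ctgf and Cyr61 rose by 1.07 ± 0.15 and 1.29 ± 0.17, and the receptor kinase Axl went from 357, 432 and 375 CPM to 768, 830.4 and 852 CPM (1.07 ± 0.13). Yap1 itself (-0.18) and Tead1 (0.07) did not pass the test. In the TGF-beta list 6 of 21 were higher and none lower, with Id1 at 1.04 ± 0.18 and Id3 at 0.70 ± 0.16. Of 20 tested EGF receptor and MAP kinase feedback genes 5 were higher and none lower, and 3 were higher under DESeq2 and without knockdown 2 or knockdown 3. The EGF receptor ligand Hbegf rose by 1.14 ± 0.18 and the receptor Met by 0.93 ± 0.14. In the Notch list 5 of 15 were higher (3 without control 1) and none lower, with the ligand Dll1 at 1.13 ± 0.18, from 33.8, 48.7 and 45.1 CPM to 87.1, 98.3 and 97.2 CPM.

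The barrier program fell. Of 23 tested genes of the cornified envelope and barrier, 12 were lower and none higher, against 7.38% of all tested genes lower, with a median of -0.54. The share of footprints of the whole list, 39 genes with the untested ones, went from 0.815, 0.948 and 0.964% to 0.671, 0.680 and 0.697%, which did not overlap. Csta, a stefin that inhibits cathepsins, had 36.9, 34.6 and 40.9 CPM in the control and 3.02, 4.01 and 3.07 CPM in the knockdown (-3.49 ± 0.35, adjusted p = 6.76e-10). The fold change of this gene rests on 11 knockdown footprints, and the stefins are a cluster of close copies. Ivl, involucrin, a scaffold of the envelope, went from 101, 102 and 119.9 CPM to 75.5, 42.1 and 54.2 CPM (-0.78 ± 0.18, adjusted p = 0.00145). Cnfn, cornifelin, fell by 1.05 ± 0.22. Other members of the program stayed short of the threshold, with Tgm1, the transglutaminase that crosslinks the envelope, at -0.15, Sbsn at -0.26 and Krtdap at 0.27.

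Of the keratins, 6 of 12 tested were lower and 2 higher, with a median of -0.27, and 3 were lower without knockdown 3. The list held 2.30, 2.34 and 2.68% of control footprints and 1.74, 2.00 and 1.80% of knockdown footprints. Krt5, the keratin of the basal layer, had 8241, 8344 and 7865 CPM against 5981, 6523 and 6084 CPM, and its partner Krt14 had 6376, 7012 and 7799 CPM against 5981, 6979.9 and 6344 CPM. The groups were apart for Krt5 (-0.40 ± 0.13, adjusted p = 0.0247) and overlapped for Krt14 (-0.13 ± 0.13, adjusted p = 0.535). The call of Krt5 was lost without control 1, knockdown 1 or knockdown 3 (adjusted p = 0.0755, 0.115 and 0.159). The wound keratin Krt16 fell by 0.72 ± 0.14 and Krt6b fell by 2.66 ± 0.24. Krt17 fell by 0.52 ± 0.16 (adjusted p = 0.0217), a call that was lost without control 3, where its change was -0.27 (adjusted p = 0.158), and without knockdown 1 or knockdown 3 (0.105 and 0.142). Krt18, a keratin of simple epithelia, rose by 0.77 ± 0.18, from 46.5, 41.0 and 63.5 CPM to 75.0, 92.3 and 80.8 CPM. Reads from close keratin copies such as Krt6a and Krt6b, or Krt14, Krt16 and Krt17, could be split between them.

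Desmosomes, the spot junctions that join keratinocytes, held 5 lower genes and 1 higher gene of 11 tested, with a median of -0.36. The lower count was 2 without knockdown 1 or knockdown 3, and the higher call was lost under DESeq2 and without every library but control 3. Dsc2, desmocollin 2, had 311, 315 and 348 CPM in the control and 145, 162 and 146 CPM in the knockdown, the largest decrease of the list at -1.11 ± 0.14 (adjusted p = 9.34e-08). Perp, a desmosomal membrane protein, fell by 0.54 ± 0.13, while Dsp (-0.04) and Jup (-0.26) did not pass the test. Of the adherens junction genes, Mllt4, afadin, rose by 0.90 ± 0.14 and the catenin Ctnnd1 by 0.58 ± 0.13. The 3 lower calls in that list of 11, E-cadherin (Cdh1, -0.40) among them, were lost without knockdown 1 or knockdown 3. Cgn, cingulin of the tight junction, rose from 15.8, 17.1 and 26.8 CPM to 55.9, 80.2 and 63.4 CPM (1.80 ± 0.22, adjusted p = 9.03e-08). Gjb2, the gap junction protein connexin 26, had 21, 42 and 12 counts in the control and 1, 1 and 0 counts in the knockdown.

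Transcription factors of the epidermis were lower for 5 of 20 tested genes and higher for none, with a median of -0.38, and the lower count was 3 under DESeq2 and without control 2, 2 without knockdown 1 and 8 without control 3. Cebpb, a factor of keratinocyte differentiation, had 480.3, 429.9 and 381 CPM against 215, 245 and 220.0 CPM (-0.94 ± 0.14, adjusted p = 1.9e-06). Grhl1, a grainyhead-like factor of the barrier, fell by 0.92 ± 0.17. The basal master factor Trp63 was at -0.09 and did not pass the test.

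**Figure D3:**
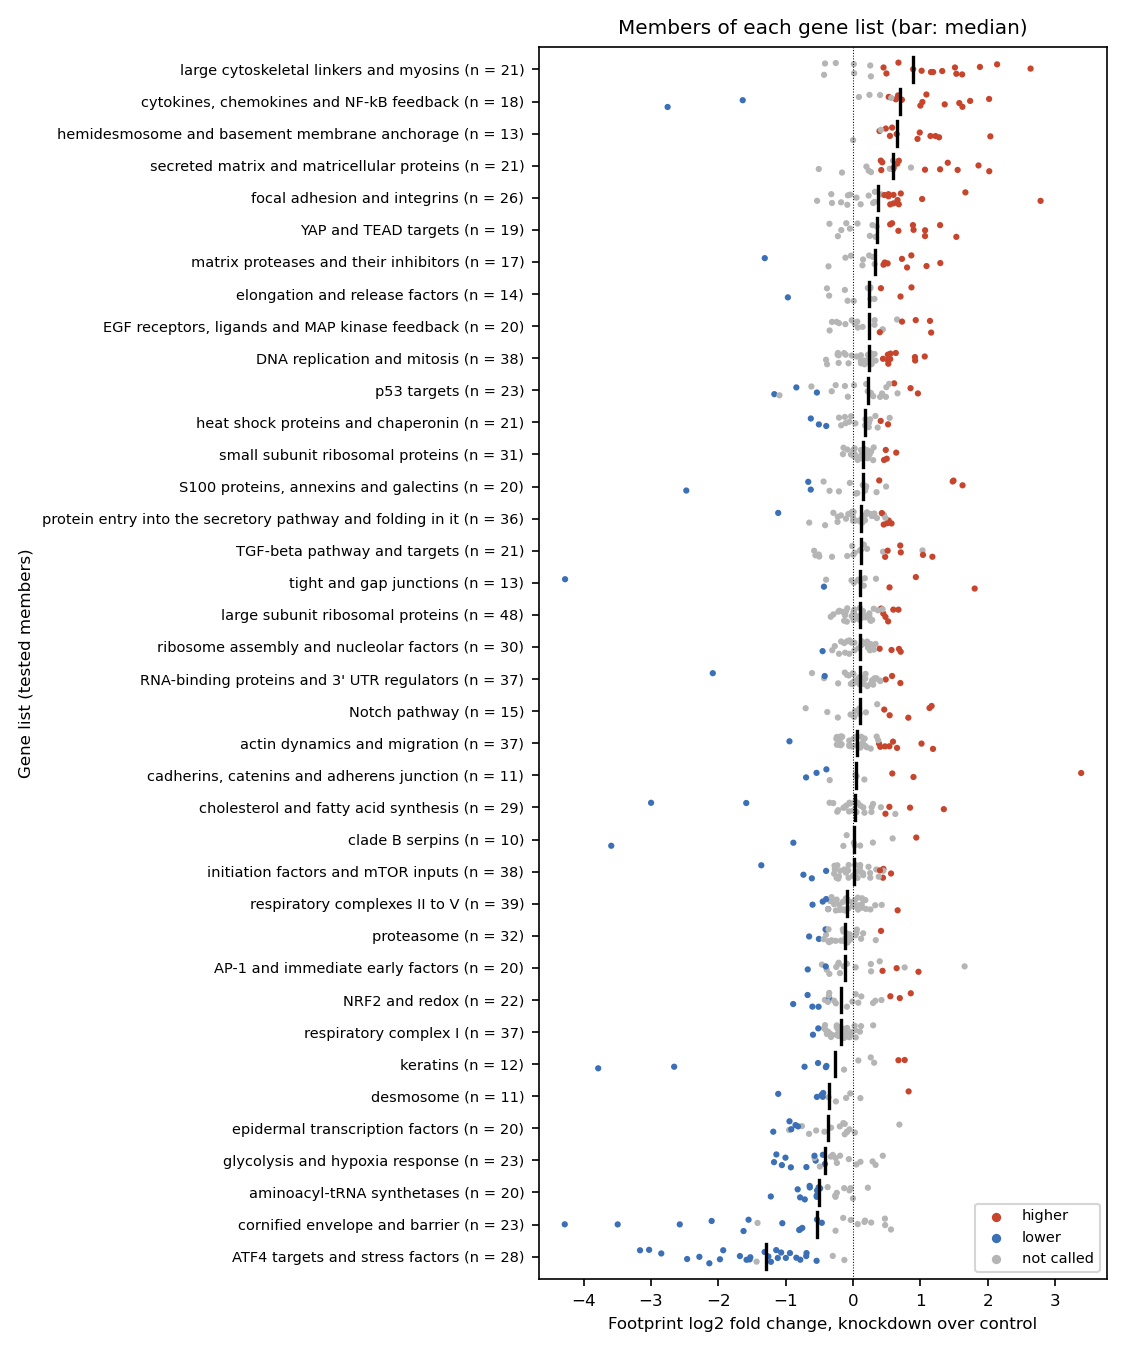
Footprint log2 fold change, knockdown over control, of each tested member of 38 gene lists, ordered by the list's median (black bar), with genes called higher in red, lower in blue and not called in grey. The large linkers sit highest, with a median of 0.89, and the ATF4 targets lowest, with a median of -1.29 and no member above 0.

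Of the 38 lists, that of amino acid supply and stress had the largest share of lower genes. ATF4 is the transcription factor of the integrated stress response, and its targets make, import and recycle amino acids. Of 28 tested ATF4 targets and stress factors, 25 were lower and none higher, against 7.38% of all tested genes lower, with a median of -1.29 and all 28 fold changes below 0. The list held 1.04, 0.818 and 0.950% of the footprints of the control libraries and 0.439, 0.587 and 0.436% of those of the knockdown libraries. Atf4 had 390.3, 277 and 463 CPM in the control and 142, 174 and 157 CPM in the knockdown. Its change was -1.26 ± 0.16 in footprints (adjusted p = 2.86e-07) and -0.58 in RNA, and the difference between them did not pass the test (adjusted p = 0.172).

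Of the enzymes of serine and glycine synthesis, Psph, Psat1 and Shmt2 fell. Psph, which makes serine from phosphoserine, had 256, 186 and 244 CPM against 46.3, 58.2 and 55.3 CPM (-2.13 ± 0.17, adjusted p = 2.78e-12), Psat1 fell by 1.00 ± 0.13 and the mitochondrial Shmt2 by 0.94 ± 0.14. Phgdh, the first enzyme of the same path, was at -0.30 and did not pass the test. Asns, asparagine synthetase, had 865, 712 and 775 CPM in the control and 278, 423 and 265 CPM in the knockdown (-1.31 ± 0.15, adjusted p = 3.36e-08). Pycr1 of proline synthesis fell by 1.54 ± 0.22, Cth of cysteine synthesis by 1.53 ± 0.19 and Pck2, the mitochondrial carboxykinase, fell by 1.90 ± 0.16.

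The transporters of the list were lower too. Slc6a9, the glycine carrier, had 139, 124 and 148 CPM against 25.7, 46.1 and 20.5 CPM (-2.28 ± 0.20), Slc7a5, which imports large neutral amino acids, fell by 1.12 ± 0.13, and the cystine carrier Slc7a11 by 1.22 ± 0.19. Chac1, which breaks down glutathione, fell by 1.98 ± 0.24 and the factor Atf5 fell by 1.93 ± 0.20. Trib3, an ATF4-induced regulator, had the lowest fold change of the list and the widest spread, with 218, 87.3 and 189 CPM against 12.1, 42.1 and 14.3 CPM (-3.16 ± 0.68, adjusted p = 0.0487). The call of Trib3 was lost without control 3, knockdown 1, knockdown 2 or knockdown 3 (adjusted p = 0.116, 0.187, 0.0627 and 0.192). In the knockdown, library 2 stood above the other two for several of these genes, among them Asns, Slc6a9, Chac1 and Trib3, and below all control libraries.

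Windows of promoters are shown here because the genes of this list fell together and a short DNA motif of ATF4 with its C/EBP partners is known. The letters TGATGNAA were searched on both strands of RefSeq promoter windows (GRCm38.p6, 250 bases before to 50 after each gene's start), and the search was chosen after the fold changes were known. They were found in 9 of 27 genes of the list with a window (33.3%), in 4.51% of 27025 genes with a window and in 2.58% of the 6827 tested genes with one. Of the genes lower in the knockdown, with this list left out, 28 of 451 (6.21%) held the letters, against 8 of 599 (1.34%) of the higher genes and 132 of 5756 (2.29%) of the genes not called. The list was made up of known ATF4 targets and stress factors, so its own share of matches is no independent result. Leaving it out need not remove every ATF4 target from the 451 genes. The part of ATF4 in these decreases was not tested. Stretches of 30 bases from 6 of the genes are shown, the 2 windows of Slc7a11 overlap each other, and the capitals mark the match, written on the gene's strand, so that a match on the other strand reads TTNCATCA.
Asns (chr6:7693214-7693243, minus strand, match starting 23 bases before the start): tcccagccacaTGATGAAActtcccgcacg
Chac1 (chr2:119351038-119351067, plus strand, match starting 193 bases before the start): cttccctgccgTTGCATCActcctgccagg
Nupr1 (chr7:126625562-126625591, minus strand, match starting 110 bases before the start): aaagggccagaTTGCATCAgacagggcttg
Pycr1 (chr11:120643833-120643862, minus strand, match starting 103 bases before the start): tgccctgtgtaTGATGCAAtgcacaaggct
Slc7a11 (chr3:50443642-50443671, minus strand, match starting 47 bases before the start): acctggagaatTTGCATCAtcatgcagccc
Slc7a11 (chr3:50443661-50443690, minus strand, match starting 66 bases before the start): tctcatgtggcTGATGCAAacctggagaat
Vldlr (chr19:27216809-27216838, plus strand, match starting 200 bases before the start): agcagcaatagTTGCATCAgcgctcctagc
These stretches lie upstream of genes whose footprints fell, Vldlr, a lipoprotein receptor, by 1.68 ± 0.25, Pycr1, Asns, Chac1 and Slc7a11 as given above, and Nupr1, a stress-induced nuclear protein, with 63.7, 23.5 and 70.5 CPM against 7.05, 10 and 4.09 CPM. The call of Nupr1 was lost without any 1 of the knockdown libraries (adjusted p = 0.123, 0.0691 and 0.0828). A match is a run of letters and shows no binding.

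Aminoacyl-tRNA synthetases, which charge tRNAs, were lower for 11 of 20 tested members and higher for none, with a median of -0.50. The lower count was 7 without knockdown 1 and 6 without knockdown 3. Sars, the seryl-tRNA synthetase, had 797, 718 and 929.7 CPM in the control and 299.6, 433 and 328 CPM in the knockdown (-1.22 ± 0.14, adjusted p = 3.36e-08). Nars fell by 0.82 ± 0.15, Yars by 0.79 ± 0.15 and Lars by 0.72 ± 0.14, while Qars (0.22), Mars (-0.05) and Vars (-0.04) did not pass the test. The share of the list went from 1.01, 0.838 and 0.927% to 0.587, 0.711 and 0.602%.

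**Figure D4:**
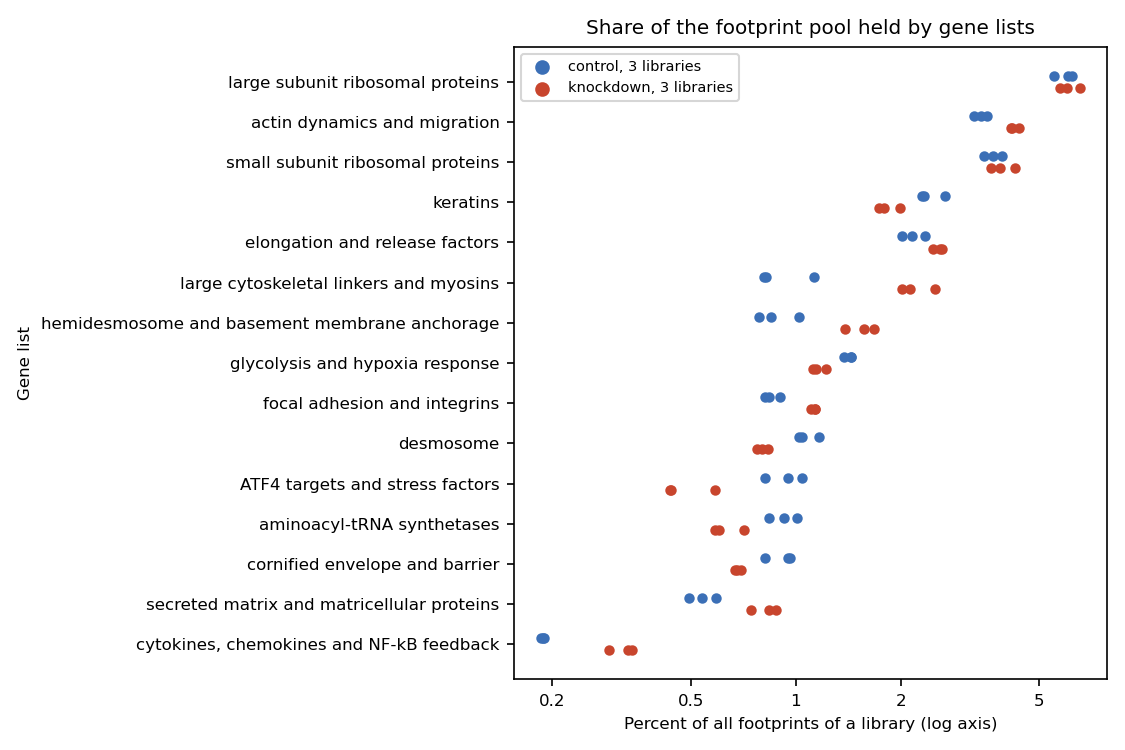
Percent of all gene footprints of a library (log axis) held by 15 gene lists in the 3 control (blue) and 3 knockdown (red) libraries. The large linkers went from 0.810 to 1.13% in the control to 2.02 to 2.51% in the knockdown, the ATF4 list fell from 0.818 to 1.04% to 0.436 to 0.587%, and both ribosomal protein lists overlapped between groups.

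Ribosomal protein genes were compared with the 8.76% higher and 7.38% lower among all tested genes. Of 31 tested proteins of the small subunit 4 were higher (12.9%) and none lower (median 0.15), and of 48 of the large subunit 7 were higher (14.6%) and none lower (median 0.10). These calls depended on single libraries: the small subunit kept 0 higher calls without control 1, 1 without knockdown 1 and 2 without control 2, without knockdown 3 and under DESeq2, and the large subunit 4 without control 1 and 3 without knockdown 1 or knockdown 3. The large subunit list held 5.52, 6.21 and 6.05% of control footprints and 6.55, 5.75 and 6.01% of knockdown footprints, which overlapped. In RNA the medians of the 2 lists were -0.16 and -0.23, and the median difference between footprint and RNA changes was 0.37 and 0.33, against 0.03 over all tested genes. Other lists differed too, with the proteasome at 0.31 and RNA-binding proteins at -0.24. Of 5 equal groups by average footprint level, the top had medians of 0.04 in footprints and -0.13 in RNA. The bottom had -0.05 and 0.07, and the part of abundance was not tested. Rpl23 of the large subunit had 1490.1, 1594 and 1367 CPM in the control and 2485, 2258 and 2359 CPM in the knockdown (0.67 ± 0.13, adjusted p = 0.000157). The acidic stalk protein Rplp2 rose by 0.60 ± 0.14 and Rpl37a by 0.52 ± 0.13. Genes of ribosomal proteins have many processed copies, so reads could be shared with them.

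Among the factors of translation, Eef1b2, an exchange factor of elongation factor 1, had 1002, 1109.7 and 1192 CPM against 2259.8, 1657 and 2081 CPM (0.87 ± 0.13, adjusted p = 7.11e-06). Tpt1, the translationally controlled tumour protein, rose by 0.70 ± 0.14, and the poly(A)-binding protein Pabpc1 by 0.56 ± 0.13. Eef2k, the kinase that holds elongation factor 2 in check, fell by 0.97 ± 0.15. Eif4ebp1, the inhibitor of cap binding, had 314, 280.1 and 326 CPM in the control and 103, 146 and 118 CPM in the knockdown (-1.36 ± 0.15, adjusted p = 5.87e-09). Of 38 tested initiation factors and inputs of the mTOR kinase 4 were higher and 4 lower (10.5% each), against 8.76% and 7.38% of all tested genes. Their median was 0.01 and turned to -0.01 under upper-quartile factors. The higher count was 2 without control 1, control 2 or knockdown 1 and 1 without knockdown 3.

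Glycolysis and hypoxia genes were lower for 10 of 23 tested members and higher for none, with a median of -0.42. The phosphofructokinase Pfkp had 202, 190.4 and 161 CPM in the control and 76.5, 104 and 81.9 CPM in the knockdown (-1.14 ± 0.16, adjusted p = 7.43e-07). Pfkl fell by 0.69 ± 0.14, the aldolase Aldoa by 0.57 ± 0.13 and the hypoxia-induced Ndrg1 by 1.17 ± 0.17, while Pkm (0.05), Ldha (-0.19) and Gapdh (-0.26) did not pass the test. In the respiratory chain the footprint medians were slightly below 0, at -0.18 for 37 subunits of complex I and -0.09 for 39 subunits of complexes II to V. Of these, 2 were lower in complex I (5.41%), and 4 were lower (10.3%) and 1 higher (2.56%) in complexes II to V. Among all tested genes 7.38% were lower and 8.76% higher. Fold changes above 0 numbered 6 and 14. The share of complex I fell from 0.598, 0.589 and 0.609% to 0.528, 0.499 and 0.474%. That of complexes II to V fell from a mean of 1.45% to 1.31%, and neither share overlapped between groups. The 2 calls in complex I were lost without knockdown 3, 1 was left under DESeq2, and without control 3 there were 6. The 4 lower calls in complexes II to V came to 1 under DESeq2 and without control 1 or any 1 knockdown library. The RNA medians of these lists were -0.62 and -0.50, and the median differences between footprint and RNA changes were 0.42 and 0.45. Of these subunits Uqcrc1 of complex III fell by 0.60 ± 0.13, from 794, 781 and 746 CPM to 528, 501 and 499 CPM.

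Lipid genes split. Fasn, fatty acid synthase, had 409, 648 and 394 CPM in the control and 1223, 1133 and 1362 CPM in the knockdown (1.35 ± 0.15, adjusted p = 1.36e-07). Acaca, which makes its substrate, rose by 0.84 ± 0.15. The carriers Fabp4 and Fabp5 fell, Fabp4 from 52.7, 39.6 and 81.8 CPM to 7.55, 6.02 and 5.12 CPM (-3.00 ± 0.32, adjusted p = 5.87e-09). Of the 29 tested genes of cholesterol and fatty acid handling 4 were higher (13.8%) and 2 lower (6.90%), against 8.76% and 7.38% of all tested genes. The list's median was 0.03, and 2 were higher without control 1 or knockdown 3. Sqle (0.03) of the cholesterol branch did not pass the test.

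Genes of DNA replication and mitosis were higher for 10 of 38 tested members and lower for none, with a median of 0.23, and 6 were higher without knockdown 3. The proliferation marker Mki67 had 85.6, 82.3 and 117 CPM against 168, 185 and 172 CPM (0.92 ± 0.15, adjusted p = 2.52e-05). The kinetochore proteins Cenpf and Cenpe rose by 1.06 ± 0.14 and 0.92 ± 0.17, and the nucleotide reductase subunit Rrm2 by 0.51 ± 0.13. The MCM helicase subunits lay between 0.12 and 0.27 and did not pass the test. Of 23 tested p53 targets 3 were higher (5 of 21 without control 2) and 3 lower (1 of 20 without control 1 or without knockdown 1), with Mdm2, the ligase that degrades p53, at 0.96 ± 0.14, Ccng1 at 0.85 ± 0.16 and Cdkn1a at 0.22, which did not pass.

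The RNA libraries of the same series allow each footprint change to be set beside that of the RNA. Of 1426 genes called in footprints and tested in both, 80.1% had the same call in RNA, 594 higher in both and 548 lower in both, and Pearson's r of the fold changes over 8918 genes was 0.74, given as a description. More genes were called in RNA, and 27.5% of the 4148 RNA calls had the same call in footprints. The reason for the larger number of RNA calls was not tested. Another 189 genes were called higher and 89 lower in footprints alone, but a call in one assay alone does not show that the assays differ. In the test of that difference, an interaction of assay and knockdown over 12 libraries, 14 genes had a footprint change above the RNA change (0.129% of 10821 tested) and 8 below it (0.0739%), with 1300 genes at an unadjusted p under 0.05.

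Mapk6, an atypical MAP kinase, is among the 8. It had 209.9, 163 and 212 CPM of footprints in the control and 82.1, 40.1 and 104 CPM in the knockdown (-1.27 ± 0.19), while its RNA changed by 0.05, a difference of -1.30 ± 0.23 (adjusted p = 0.0146). Hist1h1c, a linker histone, had 1347, 1187 and 1319 CPM against 727, 558 and 688 CPM (-0.96 ± 0.13) beside an RNA change of 0.37 (difference -1.30 ± 0.24, adjusted p = 0.0146). The mRNAs of such histones mostly end in a stem-loop, and the RNA libraries were made from polyadenylated RNA, so the RNA value covers a part of them. Fam199x was lower in footprints (-1.21 ± 0.23) and higher in RNA (1.17 ± 0.44), a difference of -2.36 ± 0.43. Its RNA was scarce, averaging 0.603 CPM for control libraries and 1.35 CPM after knockdown, so this difference rests on a low RNA level. Emc1 and Zfp266 were higher in RNA (1.27 and 1.06) with footprints at 0.14 and -0.14. Above the RNA change were Rpl23 (difference 1.02 ± 0.19) and Eef1b2 (0.98 ± 0.20), described above, and the protease inhibitor Timp2, at 107, 112 and 93.1 CPM against 164, 203 and 165 CPM (difference 0.91 ± 0.19).

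These differences were close to the limit of the test. Left without 1 footprint library, the numbers above and below were 0 and 0 (control 1), 11 and 7 (control 2), 4 and 5 (control 3), 1 and 1 (knockdown 1), 11 and 11 (knockdown 2), and 0 and 1 (knockdown 3). Without 1 RNA library they were 0 and 5 (control 1), 3 and 10 (control 2), 94 and 149 (control 3), 0 and 8 (knockdown 1), 1 and 7 (knockdown 2), and 0 and 0 (knockdown 3). Where both were 0, edgeR gave 1118 genes at an unadjusted p under 0.05 without footprint control 1 and 1187 without RNA knockdown 3. The call of Mapk6 was lost without footprint control 1 (adjusted p = 0.0547) or knockdown 1 (0.0793), that of Hist1h1c without footprint control 1 (0.0547) or knockdown 3 (0.0829), and both without RNA knockdown 3 (0.055). Rpl23, Eef1b2, Timp2, Fam199x, Emc1 and Zfp266 were lost without footprint control 1, knockdown 1 or knockdown 3, with adjusted p between 0.0547 and 0.12.

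**Figure D5:**
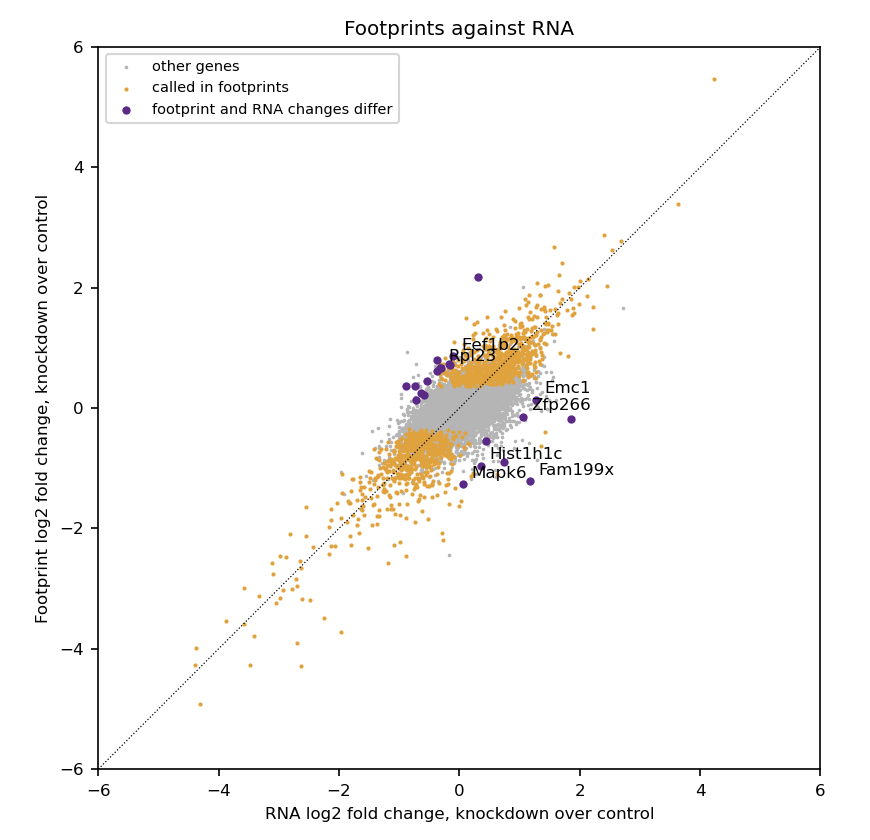
Log2 fold change of RNA (horizontal) and of footprints (vertical), knockdown over control, for 8918 genes tested in both, with genes called in footprints in orange and the 22 genes whose footprint and RNA changes differ by the interaction test in purple. Most called genes lie along the dotted line of equal change, and Mapk6 and Hist1h1c lie below it.

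The 1161 genes of the count table with an Msi2 peak in the deposited list of 3' UTR peaks held 32.6, 33.1 and 33.1% of control footprints. They held 35.2, 35.6 and 35.4% of knockdown footprints, and 1129 of them were tested. Of the tested ones 16.6% were higher and 8.59% lower, against 7.64% and 7.21% of the 7840 tested genes without such a peak. Genes with many footprints were called more often, with 17.6% higher in the top and 4.14% in the bottom of 5 equal groups by average level. The part of abundance in this difference was not tested.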

How the data were processed

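Per the submitters' processing notes, the tools were TopHat, HTSeq and DESeq, without versions, and the build was mm10. The tables deposited by the authors hold raw counts of reads over coding sequences for 6 footprint and 6 RNA libraries. Depths of the footprint libraries are given in the report. The deposited list of 3' UTR peaks was used for its gene names alone, and the peak signal, deposited by the authors as a height, entered no test.

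The counts were tested with edgeR 4.0.16 under R 4.3.3 (robust quasi-likelihood test, TMM factors, low counts removed by filterByExpr at 10 and a total of 15, Benjamini-Hochberg over all tested genes, threshold 0.05). Footprints were fitted over 6 libraries and the difference from RNA as an interaction over 12. Values are TMM-scaled CPM, except the marker sums, which have no TMM factors, and shares are percent of a library's gene counts. Fold changes are log2. Each standard error was derived from the test, as the size of the fitted change divided by the square root of its F statistic. The share of a list covers every member in the count table, tested or not. On simulated data, footprint changes of 0.5, 1 and 2 were recovered in 23.1, 78.8 and 100% of changed genes (8835 genes, 7 false calls), and interactions in 6.15, 58.2 and 84.4% (10728 genes, 6 false calls). Gene positions and promoters came from RefSeq (GRCm38.p6).

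The members and lists were chosen with earlier results of these data known. Named genes are Msi2, the 10 largest gains and losses of share and, at an average log2 CPM of at least 6, the 10 largest fold changes each way (all with an adjusted p under the threshold and no overlap of the 2 groups), the 3 members of each of 38 lists with the smallest p, and 5 interactions each way at an average of at least 5. A few genes that this rule names, or that lists hold, are not reported here. Other members are named as examples and were chosen after their values were seen. Alternatives were DESeq2 1.42.0, other factors and filters, a replicate block, 1 fit over 12 libraries and each library left out.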

Additional observations from a re-analysis of the deposited data

How the results depend on the processing

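DESeq2 called 481 genes higher and 373 lower, and 852 of its 854 calls were among the 1448 of edgeR. Leaving out each library in turn gave 463 to 885 higher and 350 to 749 lower genes. For the interaction these ranges were 0 to 94 above and 0 to 149 below the RNA change, with DESeq2 at 60 and 38 and no filter on low counts at 46 and 78. Other library factors, both filters, 1 fit over all 12 libraries and leaving out the shallowest library of each group kept the footprint counts within 1.5 times, between 726 and 845 higher and 592 and 727 lower. No called gene changed sign in any of these fits. Of the counts of list members, 167 of 1064 recomputed values moved by more than 1.5 times, and those of the lists described are given there.

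Whether the replicate numbers pair the libraries is not stated in the labels, and the correlations do not settle it. The deviations of same-numbered control and knockdown libraries correlated at 0.050, 0.029 and -0.0025, and those of other pairs at -0.044 to 0.0091. Replicates 1 and 2 thus correlated best with their own number, and replicate 3 did not. With the replicate number as a block, 789 genes were higher and 705 lower, sharing 1348 of the 1448 calls, and the interaction had 1 gene above and 2 below. Among the genes ranked first by share or fold change, the calls of Krt5 (adjusted p = 0.0558) and Trib3 (0.116) were lost under the block.

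The shallowest library held 512256 counts, and the part of depth, apart from the spread between libraries, was not tested. A comparison by protein length was not run because no protein table was used here, and genomic span, added after the data were seen, took its place.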

Other observations

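Other gene groups are given beside the 8.76% higher and 7.38% lower among all tested genes. Of 22 tested genes of NRF2 and redox defence 3 were higher (13.6%) and 5 lower (22.7%, or 3 genes without knockdown 1), with the thioredoxin reductase Txnrd1 at 97.9, 95.4 and 97.3 CPM in the control and 187, 156 and 176 CPM in the knockdown (0.86 ± 0.14, edgeR adjusted p = 3.19e-05) and the peroxidase Prdx5 at -0.89 ± 0.14. Of 36 genes of entry into the secretory pathway 5 were higher (13.9%) and 1 lower (2.78%), and 2 were higher without control 1, knockdown 1 or knockdown 3. The disulfide isomerase P4hb rose by 0.57 ± 0.13 and Herpud1, of the disposal of misfolded proteins, fell by 1.11 ± 0.19. Among 32 proteasome genes 1 was higher and 3 lower, with Psmc2 at -0.65 ± 0.13 and Psmb4 at -0.51 ± 0.13, and the higher call was lost under DESeq2 and without control 1, control 2, knockdown 1 or knockdown 3, while 5 were lower without control 3.

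Beside Msi2, the list of 37 RNA-binding proteins and 3' UTR regulators had 1 lower gene, Ptbp3 (-0.42), a call lost under DESeq2 and without any library but control 3, and 3 higher genes (5 without control 3). Hnrnpa1, a splicing factor, had 188, 191 and 159 CPM in the control and 278, 285 and 322 CPM in the knockdown (0.70 ± 0.13), and the helicase Dhx9 rose by 0.58 ± 0.14. Cnot1, the scaffold of the main deadenylase complex, rose by 0.48 ± 0.13 (edgeR adjusted p = 0.00829), a call lost without knockdown 3, while its subunit Cnot7 (0.18) and the Argonaute Eif2c2 (0.18) did not pass the test.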
